A study of Homo sapiens with 15 samples.

Results

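The mature arms of miR-192, miR-194 and miR-215, microRNAs known from kidney epithelium, were followed through small RNA libraries of a human embryonic kidney cell line. The members were taken by name, as every miRNA with exactly these numbers, which gave 6 of the 2424 miRNAs listed in either of the 2 count tables. They were hsa-miR-192-5p, hsa-miR-192-3p, hsa-miR-194-5p, hsa-miR-194-3p, hsa-miR-215-5p and hsa-miR-215-3p, written without the species prefix from here on, and all 6 were listed in both tables. The libraries came from FTO1C1, FTO2D4 and FTO3C3, which are uninduced clones derived from Flp-In 293 T-Rex cells, a form of HEK293. In the knockdown experiment each clone was transfected with 10 nM of siRNA against FTO, an RNA demethylase, or with 10 nM of scrambled siRNA, and small RNA was taken 48 h later. In the RIP-seq experiment, whose labels name no siRNA, small RNA of the clones was sequenced as it was (input), as retained by an antibody against N6-methyladenosine (m6A samples) and as retained by an IgG1 isotype control (IgG samples). There was 1 library per clone in each of the 5 groups, 15 in all, so n = 3 throughout and the replicates are 3 clones of 1 cell line. The comparisons address whether miRNA levels depend on FTO and which miRNAs the antibody against m6A retains.

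miR-192 and miR-215 are close relatives that share their seed, the bases near the 5′ end through which a miRNA recognises its targets, while miR-194 has another seed but is made from the same primary transcripts. All are abundant in kidney, liver and gut epithelium and are induced by p53. In the kidney, miR-192 and miR-215 are known for repressing the ZEB transcription factors that silence E-cadherin. A miRNA hairpin yields a 5p and a 3p arm, of which usually the more abundant is loaded into Argonaute and guides repression, whereas the other, called the passenger arm, is mostly degraded. m6A is a methylated adenosine. A precipitate with an antibody against it holds RNA that the antibody recognises together with RNA retained without recognition, and the IgG control measures the latter.

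The mature sequences, taken from RefSeq (GRCh38.p14), are shown because miR-192-5p and miR-215-5p, whose sequences are nearly the same, went in opposite directions between m6A and input samples. The capitals mark the seed, bases 2 to 8 from the 5′ end.
miR-192-5p: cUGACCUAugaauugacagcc
miR-215-5p: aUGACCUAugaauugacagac
miR-194-5p: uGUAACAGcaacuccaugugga
miR-192-3p: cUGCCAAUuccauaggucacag
miR-194-3p: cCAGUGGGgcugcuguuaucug
miR-215-3p: uCUGUCAUuucuuuaggccaaua

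miR-192-5p and miR-215-5p, both 21 bases long, carried the seed UGACCUA, which no other of the 2370 mature names in the RefSeq table had. The other 4 arms had a seed each of their own. Counted from the 5′ end, with the base of miR-192-5p first, miR-192-5p and miR-215-5p differed by C1A and C20A. In the lines that follow, the capitals mark these bases.
miR-192-5p: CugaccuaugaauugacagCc
miR-215-5p: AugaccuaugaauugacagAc
Between these bases they shared a run of 18 bases, ugaccuaugaauugacag, from position 2 to position 19. The authors matched reads by exact matches that cover at least 17 bases, so a trimmed read that lies within this run meets the criterion for both miRNAs, and only reads with an end base tell them apart. No other arm shared more than 11 bases in a row with any other miRNA of the table.

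The hairpin of miR-192 (MIR192) lies at chr11:64891137-64891246 and that of MIR194-2 at chr11:64891355-64891439, with 108 bases between them. MIR215 lies at chr1:220117853-220117962 and MIR194-1 at chr1:220118157-220118241, with 194 bases between them, all 4 on the minus strand of GRCh38.p14. The mature miR-192-5p corresponds to chr11:64891203-64891223, miR-215-5p to chr1:220117916-220117936, miR-192-3p to chr11:64891159-64891180 and miR-215-3p to chr1:220117877-220117899. miR-194-5p is encoded at both loci, at chr1:220118206-220118227 and chr11:64891404-64891425, and its reads cannot be assigned to either. miR-194-3p lies at chr11:64891368-64891389 only. The deposited counts themselves carry no positions.

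The short motif GAC or AAC, the core of the consensus of mRNA adenosine methylation, was searched for in the mature sequences on their own strand. It occurred 3 times in miR-215-5p, with the A at positions 4, 16 and 20, and 2 times in miR-192-5p, with the A at positions 4 and 16. The additional occurrence comes from C20A. miR-194-5p held it 2 times, with the A at positions 5 and 11, and none of the 3p arms held it. Of the 2127 listed miRNAs with a sequence, 796 (37.4%) held the motif at least 1 time, 146 (6.86%) at least 2 times and 15 (0.705%) at least 3 times. The longer consensus known as RRACH was in none of the 6 arms and in 459 of the 2127 miRNAs (21.6%). It reads 2 purines, then A and C, then A, C or U, and so contains the core.

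Levels are given as RPM, the reads of a miRNA scaled to 1000000 miRNA reads of its library. The mature arms are 21 to 23 bases long and reads of 16 to 28 bases were counted for them, so no length enters the level. The totals ran from 186446 reads in the IgG library of FTO3C3 to 4973238 in the m6A library of FTO3C3. miR-10a-5p took 22.1% to 30.6% of the reads of the knockdown libraries, and miR-6080 took 15.5% to 28.4% of the input, 41.3% to 47.8% of the m6A and 58.0% to 71.6% of the IgG reads. The 6 kidney markers summed to 323172 to 431700 RPM in scrambled siRNA cells, most of it miR-10a-5p and miR-10b-5p. Of the others, miR-30a-5p was at 10033 to 14471 and miR-196a-5p at 1890 to 4251 RPM. miR-204-5p, at 10.7 to 27.1 RPM, and miR-216a-5p, at 15.7 to 30.4 RPM, were low. Markers of liver (miR-122-5p, 5.22 to 7.03 RPM) and muscle (3 listed, 18.7 to 26.4 RPM in sum) were also low there. Those of neurons summed to 1827 to 2055 RPM through miR-9-5p and miR-128-3p, with miR-124-3p at 5.77 to 6.53 RPM. The 5 blood markers summed to 72.6 to 100 RPM with scrambled siRNA, 440 to 878 in the input, 829 to 1981 in the m6A and 85.0 to 118 in the IgG libraries, with miR-223-3p at 584 ± 214 RPM in the input and 1125 ± 632 RPM in the m6A libraries. Their part in the results was not tested. In bulk RNA, fewer cells with a miRNA and less of it per cell cannot be told apart.

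miR-192-5p was the most abundant of the 6 arms in the cells. It had 7709 (FTO1C1), 7812 (FTO2D4) and 7100 RPM (FTO3C3) with scrambled siRNA, or 7540 ± 385 (SD, n = 3), which placed it 21st of 2418 listed miRNAs. miR-215-5p had 560, 626 and 630 RPM (605 ± 39.4) and ranked 129th. miR-194-5p had 129, 131 and 147 RPM (135 ± 10.1) and ranked 277th. The 3p arms lay far below, with 13.6 ± 0.846 RPM for miR-194-3p, 8.63 ± 2.84 for miR-215-3p and 3.04 ± 0.418 for miR-192-3p. The 3 libraries of each arm did not overlap with those of its neighbours in this order. All 6 arms together took 0.791% to 0.859% of the reads.

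The input libraries kept the 5p arms in the same order, at lower RPM. miR-192-5p had 1284, 1860 and 1900 RPM, miR-215-5p had 112, 193 and 169 RPM, and miR-194-5p had 76.7, 95.9 and 67.3 RPM in FTO1C1, FTO2D4 and FTO3C3. Their ranges were apart from each other, but among the 3p arms miR-192-3p (12.0 to 52.5 RPM) overlapped with miR-194-3p (14 to 17.8 RPM). The knockdown and the input libraries were made in separate experiments, and the labels name a treatment only for the former. The experiment and the treatment thus cannot be told apart, and no test was made between them.

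**Figure D1:**
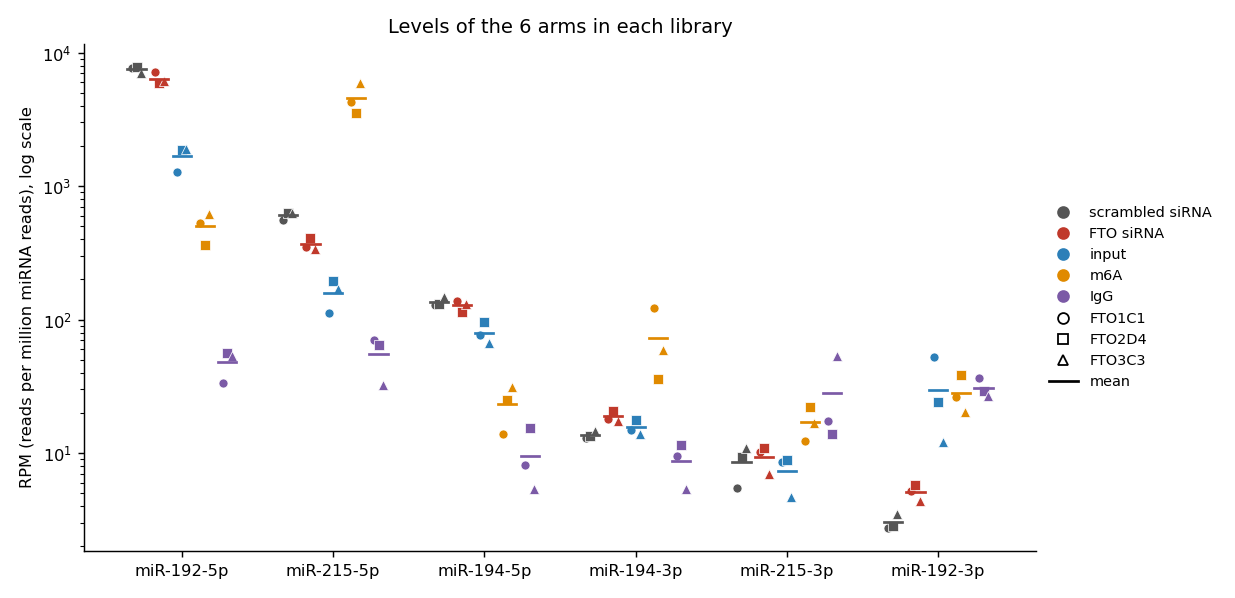
Levels of the 6 arms in each of the 15 libraries, in RPM on a log axis, coloured by group, with 1 symbol per clone and a line at the mean of each group. miR-215-5p stands between 3505 and 5918 RPM in the m6A libraries, above all its other libraries, whereas miR-192-5p is lower in the m6A than in the input libraries.

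After precipitation with the antibody against m6A the order of the 2 relatives was turned. miR-215-5p was counted 158, 282 and 254 times in the inputs of FTO1C1, FTO2D4 and FTO3C3 and 2418, 4777 and 29430 times in the m6A samples. Its level was 4246, 3505 and 5918 RPM in the m6A samples, against 112, 193 and 169 RPM in the inputs. All m6A libraries lay above all inputs, and miR-215-5p ranked 18th of 2189 miRNAs in the m6A samples after 238th in the input. The ratio of m6A to input RPM was 37.9, 18.1 and 35.0 (30.3 ± 10.6), and the fitted log2 fold change was 4.85, with a standard error (SE) of 0.48 and an adjusted p of 2.06e-09 (quasi-likelihood test of edgeR, Benjamini-Hochberg).

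miR-192-5p went the other way. It was counted 1809, 2715 and 2851 times in the inputs and 300, 496 and 3097 times in the m6A samples of the same clones, or 1284, 1860 and 1900 against 527, 364 and 623 RPM. All m6A libraries lay below all inputs. The ratio of m6A to input RPM was 0.410, 0.196 and 0.328 (0.311 ± 0.108), with a log2 fold change of -1.75 (SE 0.41, adjusted p = 0.000394 by edgeR). It ranked 116th in the m6A samples after 47th in the input.

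Over all 6 arms, the comparison of m6A with input called 3 higher and 2 lower, whereas 66.8% of the 2174 miRNAs tested were called higher and 10.5% lower. DESeq2, with its own size factors, called 1 arm higher (miR-215-5p) and 3 lower (miR-192-5p, miR-194-5p and miR-192-3p). Over all miRNAs tested the median log2 fold change was 1.65, and relative to it miR-215-5p stood at 3.20 and miR-192-5p at -3.40. Scaling by TMM factors, which brought that median to 0.10, gave 575 higher and 614 lower miRNAs in place of 1452 and 229. miR-215-5p and miR-192-5p kept their direction and their call under all 9 alternatives, with log2 fold changes of 3.28 to 5.31 and of -3.32 to -1.28.

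The ratio of both miRNAs within a library does not depend on any scaling. In the input there were 11.4 (FTO1C1), 9.63 (FTO2D4) and 11.2 (FTO3C3) reads of miR-192-5p for each read of miR-215-5p. In the m6A samples there were 8.06, 9.63 and 9.5 reads of miR-215-5p for each read of miR-192-5p. The log2 ratio thus differed by 6.60 ± 0.12 (SD over 3 clones), which is 97.0-fold, with 92.3-fold in FTO1C1, 92.7-fold in FTO2D4 and 107-fold in FTO3C3. The groups were apart in all 3 clones, and the exact two-sided permutation test gave p = 0.10, the smallest that 3 against 3 libraries allow (sign flips within clones p = 0.25, also the smallest possible). Over the 12 exact permutation tests of within-library ratios, the Benjamini-Hochberg adjusted p was 0.120 for each test at 0.10.

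**Figure D2:**
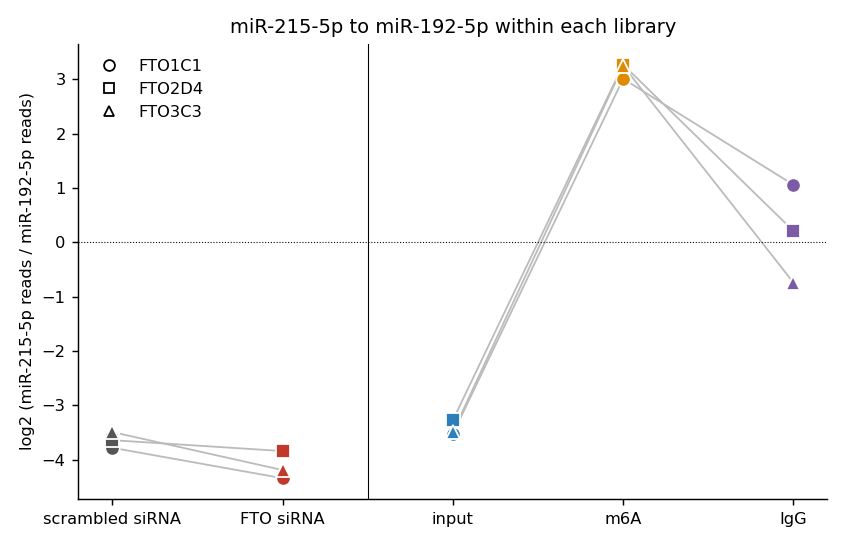
The log2 ratio of miR-215-5p to miR-192-5p reads within each library, by group, with grey lines joining the libraries of a clone inside each experiment. The inputs lie between -3.52 and -3.27, the m6A samples between 3.01 and 3.27, and the IgG samples between -0.74 and 1.06.

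The IgG samples differed from both. miR-215-5p was counted 52, 51 and 6 times in IgG (70.1, 64.8 and 32.2 RPM) and miR-192-5p 25, 44 and 10 times (33.7, 55.9 and 53.6 RPM), so the ranges overlapped. There were 2.08, 1.16 and 0.600 reads of miR-215-5p for each read of miR-192-5p. The log2 ratio was 3.0 ± 1.02 higher in the m6A than in the IgG samples and 3.60 ± 0.92 higher in the IgG than in the input samples (exact permutation p = 0.10 for each, the smallest possible). Each of the 3 comparisons shares its libraries with the others, so they are not independent.

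Against IgG, both miRNAs were higher in the m6A samples. miR-215-5p had m6A to IgG ratios of 60.5, 54.1 and 184, with a mean of 99.5 ± 73.2. The highest ratio rests on 6 IgG reads, and its exact 95% interval ran from 84.5 to 501. Its log2 fold change was 6.23 (SE 0.41, adjusted p = 8.73e-06 by edgeR), rank 24 of 2054 from the highest. miR-192-5p had ratios of 15.6, 6.51 and 11.6 (11.2 ± 4.57) and a log2 fold change of 3.37 (SE 0.36, adjusted p = 0.000131 by edgeR). Both calls held under all 9 alternatives, with log2 fold changes of 5.46 to 6.54 and of 2.59 to 3.77. miR-192-5p was thus higher in the m6A than in the IgG samples and lower in the m6A than in the input samples, and its ratio of IgG to input was 0.0263, 0.0301 and 0.0282. Intervals on counts here cover counting error only, since the reads carry no molecular identifiers.

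To place this contrast, all pairs of miRNAs of equal length that differ at 1 or 2 bases were compared, a comparison chosen after the values had been seen. Among the 37 such pairs tested in both members for m6A against input, made of 54 miRNAs, the median absolute difference of the log2 fold changes was 1.33. The pair of miR-192-5p and miR-215-5p had the largest, 6.60, followed by miR-196a-5p and miR-196b-5p with 4.26 and let-7g-5p and let-7i-5p with 3.81. For m6A against IgG the median over 32 pairs was 1.03, and the pair was 5th with 2.86. Pairs that share a miRNA are not independent, and no test was made.

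The arms of miR-194 also changed places. miR-194-5p was counted 108, 140 and 101 times in the inputs and 8, 34 and 156 times in the m6A samples, or 76.7, 95.9 and 67.3 against 14, 24.9 and 31.4 RPM. miR-194-3p was counted 21, 26 and 21 times in the inputs and 70, 49 and 293 times in the m6A samples, or 14.9, 17.8 and 14 against 123, 36.0 and 58.9 RPM. For both arms the groups were apart, in opposite directions. The log2 fold change of m6A against input was -1.75 for miR-194-5p (SE 0.43, adjusted p = 0.000546 by edgeR) and 2.04 for miR-194-3p (SE 0.44, adjusted p = 0.000151 by edgeR). The latter stood only 0.39 above the median of all miRNAs, and its call was lost with TMM factors (0.49, adjusted p = 0.329 by edgeR) and with DESeq2 (0.47, adjusted p = 0.448), while the adjusted p over all alternatives ran from 1.33e-06 to 0.448.

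The 5p share of the reads of both miR-194 arms was 83.7%, 84.3% and 82.8% in the inputs and 10.3%, 41.0% and 34.7% in the m6A samples, with exact (Clopper-Pearson) 95% intervals of 4.53 to 19.2, 30.3 to 52.3 and 30.3 to 39.3. The ratio of 3p to 5p reads was thus 14.7-fold higher in the m6A than in the input samples. It was 45.0-fold in FTO1C1, where only 8 reads of the 5p arm were counted, 7.76-fold in FTO2D4 and 9.03-fold in FTO3C3, and 8.37-fold without FTO1C1 (exact permutation p = 0.10, the smallest possible). In the IgG samples the shares of 46.2%, 57.1% and 50% rest on 13, 21 and 2 reads. The log2 ratio of 3p to 5p reads was already 2.29 ± 0.29 higher in the IgG than in the input samples. It was 1.59 ± 1.14 higher in the m6A than in the IgG samples, beside 3.87 ± 1.41 for m6A against input. The exact permutation p was 0.10 for each, the smallest possible. Much of the difference between m6A and input was thus also present in the IgG control, although on few reads.

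**Figure D3:**
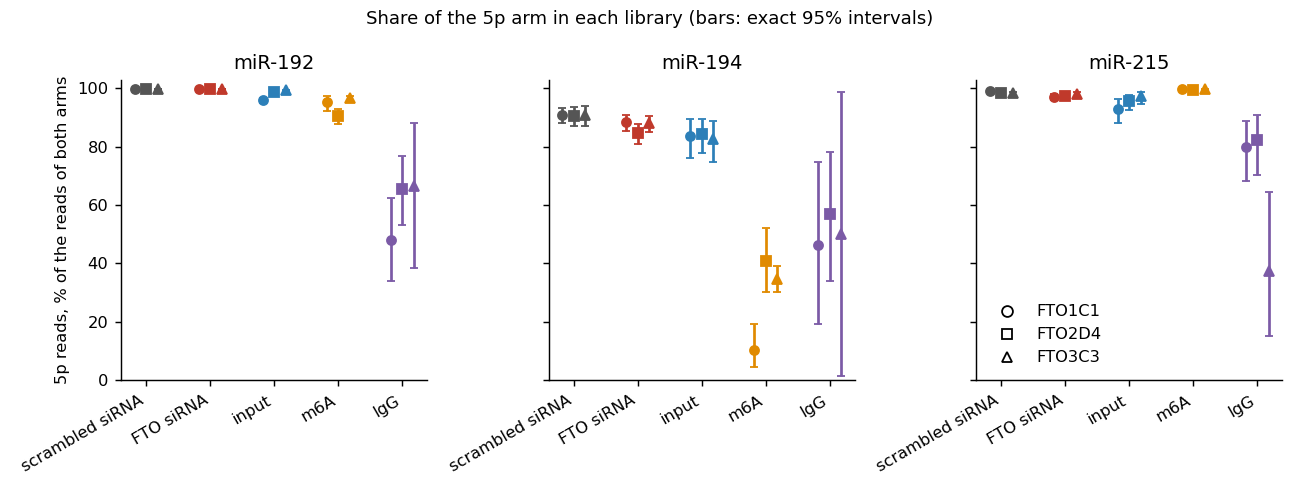
Reads of the 5p arm as a percentage of the reads of both arms of miR-192, miR-194 and miR-215, for each library, with exact 95% intervals for counting error. The share of miR-194 lies between 82.8% and 84.3% in the inputs and between 10.3% and 41.0% in the m6A samples, whereas that of miR-215 lies between 99.38% and 99.72% in the m6A samples.

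The share of the 5p arm of miR-215 was 92.9% to 97.3% in the inputs and 99.38% to 99.72% in the m6A samples, and that of miR-192 was 96.1% to 99.37% and 90.5% to 96.8%. Both were lower in the IgG samples, at 37.5% to 82.3% for miR-215 and 48.1% to 66.7% for miR-192. There, no arm other than miR-215-5p and miR-192-5p had more than 27 reads in a library.

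The 3p arms of miR-192 and miR-215, the passenger arms of the pair, had other values than their 5p arms. miR-192-3p was counted 74, 35 and 18 times in the inputs, 15, 52 and 101 times in the m6A samples and 27, 23 and 5 times in the IgG samples, or 29.5 ± 20.8, 28.3 ± 9.08 and 30.8 ± 4.99 RPM. Its log2 fold changes were 0.18 for m6A against input (adjusted p = 0.688 by edgeR) and -0.11 for m6A against IgG (adjusted p = 0.855 by edgeR). The former depends on the scale, since with TMM factors it was -1.36 (adjusted p = 0.0150 by edgeR) and with DESeq2 -1.40 (adjusted p = 0.00961). miR-215-3p was at 7.36 ± 2.34 RPM in the inputs, 17 ± 4.87 in the m6A samples and 28.4 ± 21.9 in the IgG samples, the last with 53.6 RPM in FTO3C3 from 10 reads. Against input its log2 fold change of 1.26 (adjusted p = 0.0138 by edgeR) lay below the median of all miRNAs and turned to -0.27 with TMM factors and -0.32 with DESeq2. Its call was also lost without FTO2D4 (1.24, adjusted p = 0.0918 by edgeR) and without FTO3C3 (0.98, adjusted p = 0.0978 by edgeR). Against IgG it was -0.50 (adjusted p = 0.492 by edgeR), and 0.15 without FTO3C3.

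Over the 6 arms, m6A against IgG called 3 higher and 0 lower, beside 38.6% and 1.27% of the 2054 miRNAs tested. At an unadjusted p under 0.05 edgeR also gave 3 and 0, and DESeq2 called 3 and 0, with 1 lower at an unadjusted p under 0.05. The arms called were miR-215-5p, miR-192-5p and miR-194-3p. miR-194-3p was counted 7, 9 and 1 times in the IgG samples, so that its ratios of 13.0, 3.14 and 11 are imprecise, the last with an exact 95% interval of 1.96 to 435. Its log2 fold change was 2.79 (SE 0.52, adjusted p = 0.00284 by edgeR), and it was 2.15 without FTO1C1 and 3.64 without FTO2D4. miR-194-5p had ratios of 1.74, 1.64 and 5.85, the last from 1 IgG read with an interval of 1.03 to 232, and a log2 fold change of 1.06 (adjusted p = 0.123 by edgeR). The median over all tested miRNAs was 0.83, and TMM factors, which brought it to 0.06, gave 453 higher and 302 lower miRNAs in place of 792 and 26. Without FTO2D4, 470 miRNAs were called in place of 818.

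The ratio of IgG to input RPM differed among the arms. RPM are shares of a library, so these ratios do not measure the amount retained. miR-192-5p was lower in the IgG samples than in the inputs by a log2 fold change of -5.15 (SE 0.48, adjusted p = 4.43e-25 by edgeR), with the ratios given above, which varied little between the clones. miR-194-5p had ratios of IgG to input of 0.106, 0.159 and 0.0797 and a log2 fold change of -3.01 (SE 0.58, adjusted p = 9.84e-07 by edgeR). miR-215-5p had ratios of 0.625, 0.336 and 0.190 and a log2 fold change of -1.45 (SE 0.47, adjusted p = 0.00444 by edgeR), which was -0.29 (adjusted p = 0.553 by edgeR) when miR-6080 was left out of the totals, with a range of the adjusted p of 9.58e-05 to 0.553 over all alternatives. Of the 3p arms, miR-215-3p was higher (1.61, SE 0.55, adjusted p = 0.00691 by edgeR), a call that was lost with TMM factors (1.07, adjusted p = 0.0646 by edgeR), with DESeq2 (1.06, adjusted p = 0.199) and without FTO3C3 (0.84, adjusted p = 0.263 by edgeR). miR-192-3p (0.16) and miR-194-3p (-0.75) were not called, and both their signs and their calls depended on the scale. The former was -0.34 (adjusted p = 0.508 by edgeR) with TMM factors and was called higher without miR-6080 in the totals (1.29, adjusted p = 0.0116 by edgeR). The latter was called lower with TMM factors (-1.17, adjusted p = 0.0442 by edgeR) and was 0.43 (adjusted p = 0.475 by edgeR) without miR-6080 in the totals. Thus 1 arm was called higher and 3 lower, beside 36.8% and 21.8% of the 1941 miRNAs tested, with a median log2 fold change of 0.49. With TMM factors, whose median was -0.02, 559 were higher and 586 lower in place of 714 and 423.

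**Figure D4:**
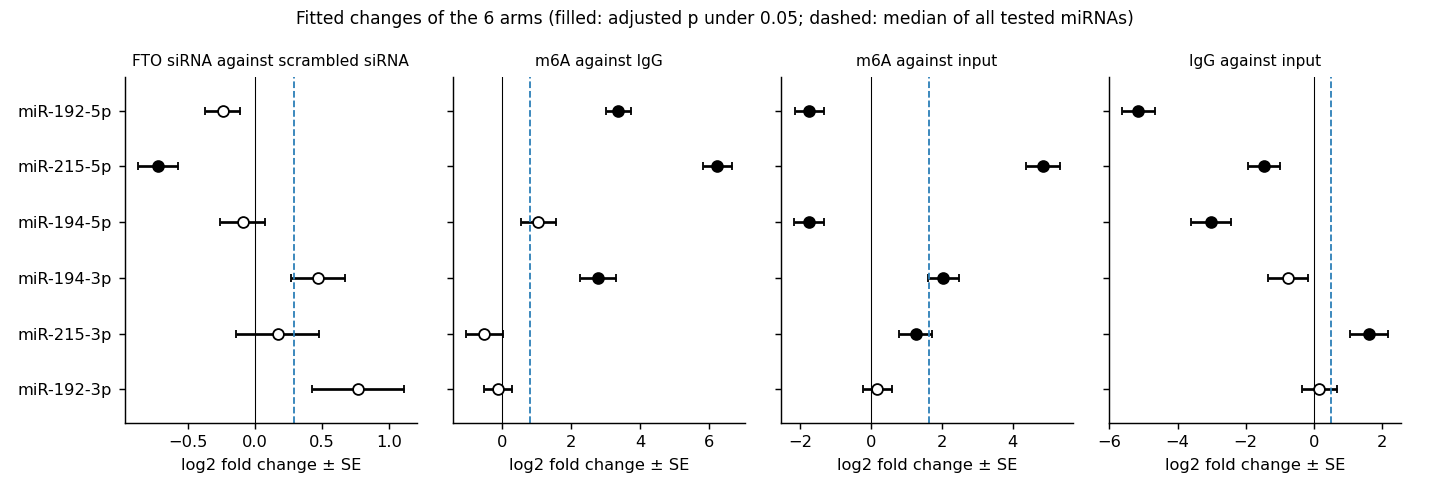
Fitted log2 fold changes of the 6 arms with their standard errors in the 4 comparisons, filled where the adjusted p was under 0.05, with the median of all tested miRNAs as a dashed line. miR-215-5p is the only filled point in the knockdown, at -0.72, and in m6A against input it stands at 4.85 while miR-192-5p stands at -1.75.

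After FTO knockdown, miR-215-5p was the only arm that edgeR called lower. Its reads in FTO1C1, FTO2D4 and FTO3C3 numbered 2036, 1542 and 1254 in the scrambled siRNA and 1230, 1426 and 1302 in the FTO siRNA libraries, or 560, 626 and 630 against 353, 412 and 336 RPM. All FTO siRNA libraries lay below all scrambled siRNA libraries. The ratio was 0.632, 0.658 and 0.533 (0.608 ± 0.0657), and the log2 fold change was -0.72 (SE 0.15, adjusted p = 0.0289 by edgeR), rank 20 of 2374 from the lowest. The call was lost without the clone as a block (-0.72, adjusted p = 0.0843 by edgeR) and without FTO1C1 (-0.76, adjusted p = 0.218 by edgeR), while the fold itself stayed between -1.02 and -0.63 over the 9 alternatives, whose adjusted p ran from 4.57e-06 to 0.218.

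Of the 6 arms, 0 were called higher and 1 lower after FTO knockdown, beside 4.97% and 0.505% of the 2374 miRNAs tested. At an unadjusted p under 0.05 edgeR gave 2 higher, miR-194-3p and miR-192-3p, and 1 lower, whereas DESeq2 gave 0 higher. DESeq2 called 2 lower, miR-192-5p and miR-215-5p, and gave no adjusted p for the 3p arms. Over all miRNAs tested the median log2 fold change was 0.29, and relative to it miR-215-5p stood at -1.02, miR-192-5p at -0.53 and miR-194-5p at -0.38. TMM factors, which brought the median close to 0, gave 21 higher and 34 lower miRNAs in place of 118 and 12. Without FTO1C1 edgeR called 0 miRNAs (327 had an unadjusted p under 0.05), and without FTO3C3 it called 201.

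miR-192-5p had 7709, 7812 and 7100 RPM with scrambled siRNA, against 7177, 5906 and 6138 RPM with FTO siRNA. The groups overlapped, although the ratio was under 1 in each clone, at 0.931, 0.756 and 0.865 (0.851 ± 0.0883). Its log2 fold change of -0.24 (SE 0.13) did not pass the edgeR test (adjusted p = 0.274), whereas DESeq2 with its own size factors gave -0.53 (adjusted p = 0.0472). Over all alternatives the adjusted p was 0.0472 to 0.718. miR-194-5p, with 129, 131 and 147 against 139, 114 and 130 RPM, had ratios of 1.08, 0.875 and 0.882, which lie on both sides of 1, and a log2 fold change of -0.09 (adjusted p = 0.771 by edgeR).

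The ratio of the relatives within each library also differed. There were 13.8, 12.5 and 11.3 reads of miR-192-5p for each read of miR-215-5p in the scrambled siRNA libraries, against 20.3, 14.3 and 18.3 in the FTO siRNA libraries. The groups were apart, and the log2 ratio of miR-215-5p to miR-192-5p was lower in each clone, by -0.49 ± 0.26 on average (exact permutation p = 0.10, the smallest possible).

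**Figure D5:**
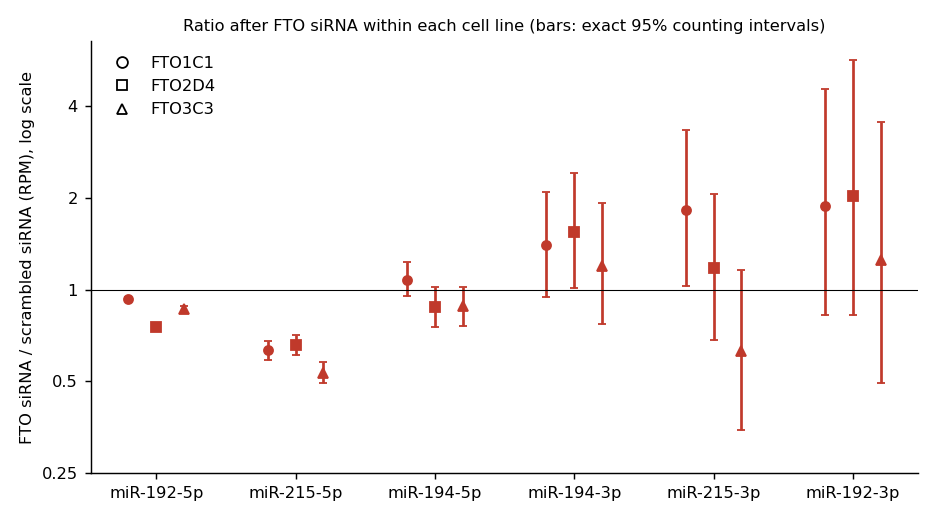
The ratio of RPM with FTO siRNA to RPM with scrambled siRNA for each arm and clone on a log axis, with exact 95% intervals for counting error. The ratios of miR-215-5p are 0.533 to 0.658, those of miR-192-5p 0.756 to 0.931, and those of the 3p arms have wide intervals.

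The 3p arms had few reads in these libraries. The reads of miR-194-3p numbered 47, 33 and 29 in the scrambled siRNA and 63, 72 and 68 in the FTO siRNA libraries, or 12.9, 13.4 and 14.6 against 18.1, 20.8 and 17.5 RPM. The groups were apart, but the log2 fold change of 0.47 did not pass the test (adjusted p = 0.178 by edgeR) and stood 0.18 above the median. The 5p share of miR-194 was 90.9%, 90.7% and 91.0% with scrambled siRNA, against 88.5%, 84.6% and 88.1% with FTO siRNA. The corresponding ratio of 3p to 5p reads was 1.30-fold, 1.77-fold and 1.37-fold higher after knockdown (exact permutation p = 0.10, the smallest possible). miR-192-3p, with 10, 7 and 7 reads against 18, 20 and 17, had a log2 fold change of 0.77 (adjusted p = 0.191 by edgeR). miR-215-3p, with 20, 23 and 22 reads against 35, 38 and 27, had 0.17 (adjusted p = 0.758 by edgeR), which turned to -0.13 with TMM factors and to -0.19 without FTO1C1.

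Among 16 other miRNAs of kidney and renal epithelium, chosen for what they are known for, 15 were tested after FTO knockdown, with 1 called higher and 0 lower, beside 4.97% and 0.505% of all miRNAs tested, and a median log2 fold change of 0.13, against 0.29 over all miRNAs. The miRNA called was miR-30a-3p, the passenger arm of a miRNA abundant in kidney, with 1.11 (SE 0.15, adjusted p = 0.00502 by edgeR). At an unadjusted p under 0.05 edgeR gave 3 higher and 3 lower, and DESeq2 called 1 higher and 2 lower. Of the 6 markers of kidney, a list that overlaps with this one, edgeR called 0 higher (0 also at an unadjusted p under 0.05, and by DESeq2) and 1 lower (2 by DESeq2). The call by edgeR was miR-196a-5p, a HOX cluster miRNA, with 2910 ± 1213 RPM with scrambled and 978 ± 322 RPM with FTO siRNA and a log2 fold change of -1.54 (SE 0.15, adjusted p = 0.000704 by edgeR). For m6A against IgG, 8 of 13 tested were higher and 0 lower (0 also at an unadjusted p under 0.05 by edgeR), beside 38.6% and 1.27% of all miRNAs tested, with a median of 1.68, against 0.83. DESeq2 called 6 of 15 higher and 0 lower. miR-10a-5p, a HOX cluster miRNA, had 6.13, miR-30c-5p 5.61 and miR-200b-3p, a repressor of the ZEB factors, 5.09. In the IgG libraries miR-30c-5p had 0 to 2 reads and miR-200b-3p 3 to 12, so their values are imprecise. For m6A against input, 6 of 15 were higher and 6 lower, beside 66.8% and 10.5% of all miRNAs tested, with a median of 0.81, against 1.65. DESeq2 called 3 higher and 7 lower. miR-200b-3p was on the side of miR-215-5p with 2.84 (adjusted p = 1.32e-06 by edgeR), and miR-30a-5p on that of miR-192-5p with -4.26 (adjusted p = 1.41e-08 by edgeR). For IgG against input, 3 of 14 were higher and 8 lower, beside 36.8% and 21.8% of all miRNAs tested, with a median of -2.65, against 0.49, and DESeq2 called 1 of 15 higher and 8 lower.

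Of 10 other miRNAs known to be induced by p53, 8 were tested after FTO knockdown, with 0 higher and 1 lower, beside 4.97% and 0.505% of all miRNAs tested, and a median of -0.07. DESeq2 gave the same counts, as did edgeR at an unadjusted p under 0.05. The call was miR-16-5p, a repressor of the cell cycle and of BCL2, with -0.49 (SE 0.12, adjusted p = 0.0484 by edgeR). miR-34c-5p, of a family directly induced by p53, had -0.08 (adjusted p = 0.827 by edgeR) and miR-34b-5p -0.25 (adjusted p = 0.565 by edgeR). For m6A against IgG, 5 of 7 were higher and 0 lower (0 also at an unadjusted p under 0.05 by edgeR), beside 38.6% and 1.27% of all miRNAs tested, with a median of 2.78, led by miR-107 with 6.74 (SE 0.74). The value of miR-107 is imprecise, since it had only 0 to 1 reads in the IgG libraries. DESeq2 called 3 of 7 higher and 0 lower. For m6A against input 3 of 7 were higher and 3 lower (median 0.06), beside 66.8% and 10.5%, and DESeq2 called 2 higher and 4 lower. Here miR-34b-5p had 3.69 (adjusted p = 1.03e-06 by edgeR), with only 2 to 3 reads in the input libraries, and miR-15a-5p -3.41 (adjusted p = 1.25e-07 by edgeR). For IgG against input, 1 of 6 was higher and 4 were lower (median -4.11), beside 36.8% and 21.8%, and DESeq2 called 1 of 7 higher and 4 lower.

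The levels over all 15 libraries, as log2(RPM + 1), were set beside those of 754 miRNAs with a mean of at least 50 RPM. The libraries come from 2 experiments with distinct totals and top miRNAs, so the correlations are a description. miR-192-5p was most like miR-28-3p (Pearson's r = 0.990), miR-30d-5p (0.989), miR-361-5p (0.989), miR-370-3p (0.988) and miR-26a-5p (0.986). miR-194-5p, made from the same transcripts, came 34th with 0.957, and miR-215-5p, which has the same seed, 355th with 0.334. miR-194-5p was most like miR-30b-5p (0.988), miR-20a-5p (0.977), miR-9-5p (0.973), miR-499b-5p (0.973) and miR-106b-3p (0.972). For miR-194-5p, miR-215-5p came 358th with 0.184, although the hairpin of miR-215 also lies beside a hairpin of miR-194.

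miR-215-5p had other neighbours. These were miR-628-5p (0.975), miR-501-3p (0.961), miR-4653-5p (0.959), miR-7151-3p (0.958) and miR-7153-5p (0.955). All 5 had positive log2 fold changes for m6A against input, from 3.23 to 4.64, as miR-215-5p had, whereas the 5 neighbours of miR-192-5p had values from -2.70 to -1.03. This follows from their choice by likeness over these same libraries. After FTO knockdown the 5 neighbours of miR-215-5p had log2 fold changes of -0.40 to 0.55, with adjusted p of at least 0.0721 by edgeR, beside -0.72 for miR-215-5p. Of the neighbours of miR-192-5p, miR-28-3p was called lower (-0.62, adjusted p = 0.0323 by edgeR).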

How the data were processed

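Per the submitters' processing notes and the study's methods, the authors trimmed adapters from 50-base reads with cutadapt (overlap of 4 bp, error of 20%) and retained lengths of 16 to 28 bp. Reads were assigned to the mature miRNAs of miRBase release 20 by exact stretches of 7 bases or more that together cover 17 or more, and a read matching several miRNAs was assigned to the best match. The deposited values are raw counts per mature miRNA.

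From these counts, RPM were computed per total of miRNA reads. Differences were tested with edgeR 4.0.16 (glmQLFit and glmQLFTest, R 4.3.3), with the totals as library sizes, the clone as a block, filterByExpr by group with a minimum count of 10 and Benjamini-Hochberg adjustment at 0.05 over all miRNAs tested. All 6 arms passed the filter in all 4 comparisons. The SE is the log2 fold change divided by the root of its F statistic. Intervals on ratios and shares are exact binomial ones at 95%. Within-library ratios were tested by exact two-sided permutation over libraries. The script was tested on simulated data.

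Libraries were paired by clone, which their labels name. After subtraction of the group means, the paired libraries of the knockdown correlated at 0.1904, 0.1184 and 0.1645, and those of the RIP-seq comparisons between -0.0747 and 0.0573. Libraries of a group differed by more than sampling noise (chi-square per degree of freedom of 7.792 to 166.454), so none was counted as a copy. The replicates are clones of 1 cell line, so no p-value covers differences between cell lines. Those of edgeR and DESeq2 rest on a spread estimated with the help of all miRNAs tested, not on that of the 3 clones alone.

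The alternatives were TMM factors, totals without the top miRNA (miR-10a-5p or miR-6080), DESeq2 1.42.0, no filter, no block, each clone left out and 0.5 reads added before ratios. A filter by the design matrix was run first and, after its output had been seen, replaced by the filter by group and kept as an alternative. The members, lists and tests were chosen with earlier results of these data known. Named miRNAs are the 6 arms, the listed kidney, p53 and marker miRNAs, the 5 miRNAs most like each 5p arm, and miR-10a-5p and miR-6080. The pairs set beside miR-192-5p and miR-215-5p were chosen after their values were seen. The level of FTO mRNA was not analysed here.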

Additional observations from a re-analysis of the deposited data

How the results depend on the processing

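Each comparison was refitted under 9 alternatives. Of the refitted log2 fold changes, 184 kept direction and side of the threshold, 15 turned their sign (2 of them lost a call and 2 gained one), and of those that kept their sign 10 lost the call and 3 gained it. All 20 alternatives of the ratio of miR-215-5p to miR-192-5p kept their direction and all 60 of the 5p shares moved by less than 1 SD. Leaving out a clone could not have given another outcome. The ratio went the same way in all 3 clones, and leaving out 1 of 3 values cannot move their mean by 1 SD. The sign flips use the same difference as the main result. Only the 0.5 reads added could have changed either. Called miRNAs after FTO knockdown numbered 55 with TMM factors, 41 without the clone as a block (replicate block) and 0 (without FTO1C1) to 201 (without FTO3C3) with a clone left out, against 130. For m6A against IgG they numbered 470 (without FTO2D4) to 730 (without FTO1C1) with a clone left out, against 818, and for m6A against input 1074 with DESeq2, against 1681. The filter by design matrix gave 129, 843, 1690 and 1169 calls and changed no call of an arm. It was run first and was replaced by the filter by group after its output had been seen.

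After knockdown, miR-192-5p was called with DESeq2 (-0.53), miR-215-5p was not called without the block (-0.72) and ran from -0.78 to -0.63 with a clone left out, and miR-215-3p was -0.13 with TMM factors and -0.19 to 0.54 with a clone left out. For m6A against IgG, leaving out a clone gave -0.44 to 0.09 for miR-192-3p and -1.20 to 0.15 for miR-215-3p. For m6A against input, miR-192-3p was -1.36 with TMM factors, -1.40 with DESeq2, -0.08 without the block and -0.10 to 0.71 with a clone left out. miR-194-3p was 0.49 with TMM factors and 0.47 with DESeq2, and miR-215-3p -0.27, -0.32 and 0.98 to 1.55 with a clone left out. For IgG against input, miR-192-3p was -0.34 with TMM factors, 1.29 without miR-6080, -0.38 with DESeq2 and -0.14 to 0.63 with a clone left out. miR-194-3p was -1.17 with TMM factors and 0.43 without miR-6080, miR-215-3p was 1.07 with TMM factors, 1.06 with DESeq2 and 0.84 to 2.14 with a clone left out, and miR-215-5p was -0.29 without miR-6080. The cause of these shifts was not tested. Without the block no other call of an arm changed. DESeq2 gave no adjusted p for the 3p arms after knockdown, and miR-194-5p failed the filter for m6A against IgG without FTO2D4. The IgG libraries limit the precision of ratios of the arms with few reads.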
